A study of Drosophila melanogaster with 36 samples.

Results

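Contacts between the interiors of different chromosomes were taken as all pairs of 40-kb bins that lie on 2 different chromosomes among X, 2 and 3, with both bins at least 2 Mb from either end of their arm. Pairs of 2L with 3R were left out by the same rule. The interiors hold 2473 of the 2977 bins of the 5 arms and give 1644735 of the 4432753 possible bin pairs, in 7 arm pairs. Between 1618981 and 1630882 of these pairs had both bins kept by the authors in a given matrix, and a kept pair that was absent from a matrix was counted as 0.

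The study mapped chromatin contacts by Hi-C, in which crosslinked chromatin is cut, here with HindIII, and neighbouring ends are ligated and sequenced. All samples are ovarian somatic cells (OSCs), a cultured Drosophila line in which the Piwi–piRNA pathway operates, transfected with siRNAs. The knockdowns (KD) were those of HP1a, Egg, H1, Nxf2 and Piwi, and each series had its own Control-KD with siRNA against EGFP, a sequence the fly genome does not hold. H1-KD and Egg-KD shared 1 Control-KD. The HP1a-KD cells and their Control-KD were taken 2 days after transfection, and the sample labels of the other series name no time. The methods give Piwi-KD as a 4-day knockdown, so knockdown length and target cannot be told apart between HP1a-KD and Piwi-KD. The authors merged 2 replicates into each of the 9 matrices, so no SD within a condition can be given and no test was run. Nothing in the matrices reports the amount of the targeted proteins, and the knockdowns are taken from the labels.

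Chromosomes occupy separate territories in the nucleus, and contacts between them are sparse. In Drosophila nuclei the centromeres tend to gather at a heterochromatic chromocenter while the arms run away from it, the Rabl arrangement, so loci at a like distance from the centromere can meet across chromosomes. Piwi is the nuclear protein guided by piRNAs, Nxf2 is a partner needed for Piwi-directed silencing, H1 is the linker histone, Egg is the histone H3 lysine 9 methyltransferase Eggless, and HP1a binds the mark that Egg writes.

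A value is the corrected contact signal of a bin pair. The correction gives every kept bin the same total, so a bin that has more contact within its chromosome has less outside it. The contacts behind the values could be recovered, and the interiors of different chromosomes held 4251262 of them in Piwi-KD against 4430019 in its Control-KD, and 4210252 in Nxf2-KD against 4559597 in its Control-KD. The other series were shallower, with 1431788 in H1-KD and 1558132 in Egg-KD against 1702599 in their Control-KD, and 1178388 in HP1a-KD against 1834953 in its Control-KD. A pair thus held between 0.723 and 2.80 contacts on average, and between 15.3% and 52.7% of pairs were absent, the highest share being that of HP1a-KD. Statements are therefore made on sums over many pairs. Each difference is set beside the differences among the 4 Control-KD matrices, taken as 6 pairs, whose root mean square is called the control-pair spread. The spread covers counting error and whatever else differed between the 4 experiments.

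HP1a-KD was the only knockdown whose share of contacts between chromosome interiors lay outside the range of the Control-KD matrices on the low side by more than the spread. The members held 4.16% of the matrix total in HP1a-KD against 5.75% in its Control-KD, a change of -27.8% and a log2 ratio of -0.47. The control-pair spread was 0.18 and the largest difference between 2 Control-KD matrices was 0.30, so the HP1a-KD change was larger than any of the 6.

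In the other series the share differed little. It was 5.91% in Piwi-KD against 6.14% in its Control-KD, and 6.61% in Nxf2-KD against 6.69% in its Control-KD. H1-KD had 5.68% and Egg-KD 5.32%, against 5.44% in their common Control-KD. The log2 ratios of these 4 knockdowns, -0.06, -0.02, 0.06 and -0.03, did not reach the control-pair spread in size. That spread also holds differences between series, and the merged replicates leave no measure of error within a series. Changes this small are therefore not interpreted. The counting error of a share was at most 0.00457 percentage points, far below the differences between Control-KD matrices.

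Both kinds of chromosome pair were lower in HP1a-KD. Pairs of X with an autosome held 2.47% of the total in HP1a-KD against 3.51% in its Control-KD, and pairs of chromosome 2 with 3 held 1.69% against 2.24%. The corresponding log2 ratios were -0.51 and -0.41, beside control-pair spreads of 0.17 and 0.20. In recovered contacts, before the correction, the whole share was 4.08% in HP1a-KD against 5.79% in its Control-KD. HP1a-KD also had the fewest recovered contacts per pair, 0.723 against 1.13 in its Control-KD. A lower share itself lowers that count. The whole HP1a-KD matrix held 28869323 recovered contacts against 31691817 in its Control-KD. That of H1-KD held 25463370, with a share of 5.68%. The part of depth in the result was not tested. A share also falls when other contacts of the matrix rise. The paper reports a global rise of short-range interactions in HP1a-KD, and a changed cell cycle distribution. Their part in the lower share was not tested.

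**Figure D1:**
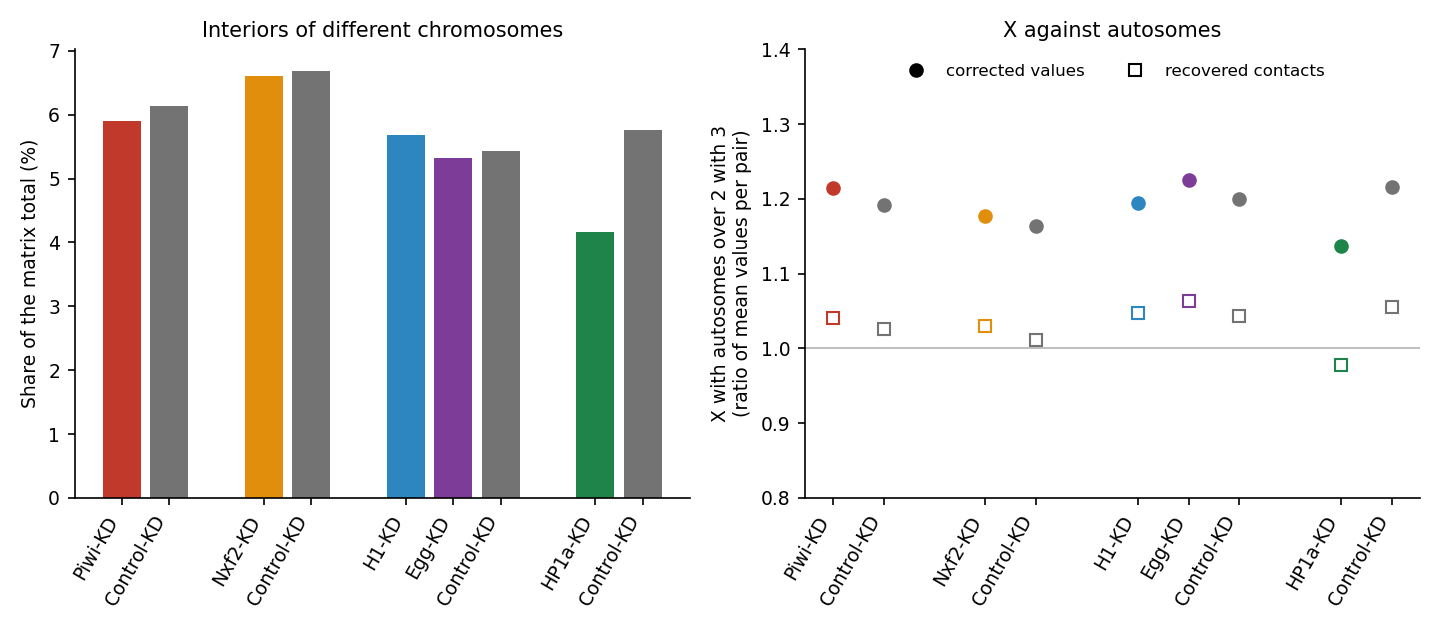
Left, bars give the share of the matrix total (%) held by pairs of interior bins of different chromosomes in each of the 9 matrices, each knockdown left of its Control-KD. Right, the ratio of the mean value of X with autosomes to that of 2 with 3, in corrected values (filled circles) and recovered contacts (open squares); HP1a-KD has the lowest share, 4.16%, and the lowest ratio, 1.14.

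In every matrix, corrected values were higher for X with autosomes than for 2 with 3. The ratio of the mean values was 1.21 in Piwi-KD against 1.19 in its Control-KD, 1.18 in Nxf2-KD against 1.16, and 1.19 in H1-KD and 1.22 in Egg-KD against 1.20. In HP1a-KD the ratio was 1.14 against 1.22 in its Control-KD. The HP1a-KD ratio was the lowest of the 9, with a log2 ratio to its Control-KD of -0.10, where control pairs had a spread of 0.04 and differed by at most 0.06. For the other 4 knockdowns the change was smaller than the spread.

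The excess of X was smaller before the correction. In recovered contacts the ratio was 0.978 in HP1a-KD against 1.06 in its Control-KD, and between 1.01 and 1.06 in the other 8 matrices. X has 1 arm in the matrix where the autosomes have 2, and an X bin had between 82.8% and 89.3% of its corrected total on its own chromosome, against 87.6% to 91.5% for an autosomal bin. An interior X bin also held fewer recovered contacts than an autosomal one, 14521 against 18967 in HP1a-KD and 16665 against 21195 in its Control-KD. When pairs of 2L with 3R were added back, the ratio over the Control-KD matrices averaged 1.02. The lower ratio of HP1a-KD was present on both scales. It reached a log2 ratio of only -0.03 against the Nxf2-series Control-KD and -0.05 when absent pairs were left out, the first within the largest control-pair difference and the second beyond that of its own setting, 0.03.

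The 7 arm pairs kept nearly the same order in all 9 matrices. Levels below are the mean value of an arm pair over the mean of all members. X with 2R was the highest in each matrix, between 1.16 and 1.22, and 2R with 3R the lowest, between 0.772 and 0.804. Averaged over the 4 Control-KD matrices, X with 2L stood at 1.17 ± 0.014, X with 3L at 1.09 ± 0.0049, 2L with 3L at 1.06 ± 0.0081, X with 3R at 0.903 ± 0.0066 and 2R with 3L at 0.862 ± 0.017 (SD, n = 4 matrices). X with 2R and X with 2L differed by little more than their spread, and the steps between X with 3L and 2L with 3L and between X with 3R and 2R with 3L were larger than it. In recovered contacts 2L with 3L was the highest on average over the Control-KD matrices, at 1.19, and 2R with 3R remained the lowest.

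In HP1a-KD the level of 2L with 3L was higher, and those of X with 2L, X with 2R and X with 3L were lower. The level of 2L with 3L was 1.12 in HP1a-KD against 1.06 in its Control-KD, and all other 8 matrices lay between 1.04 and 1.07. X with 2L was 1.12 against 1.18, X with 2R 1.16 against 1.22, and X with 3L 1.05 against 1.09. These 4 changes had log2 ratios of 0.07, -0.08, -0.07 and -0.05. Each exceeded the largest control-pair difference of its arm pair, which was 0.02, 0.04, 0.06 and 0.02. Set against the Piwi- and Nxf2-series Control-KD, the log2 ratio of X with 2R was only -0.03 and -0.01, within its 0.06. X with 3R was the exception among X pairs, at 0.930 in HP1a-KD against 0.900 in its Control-KD. Its log2 ratio of 0.05 also exceeded its largest control-pair difference, 0.02. The levels of 2R with 3L and 2R with 3R were higher too, with log2 ratios of 0.05 each, within their largest control-pair differences of 0.06. All 4 pairs of X are tied by the equal bin totals, so these levels are not independent of one another.

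Shifts in the other knockdowns were small. X with 3L was higher in Piwi-KD (1.11 against 1.09), Nxf2-KD (1.10 against 1.08) and Egg-KD (1.10 against 1.09), with log2 ratios of 0.03, 0.03 and 0.02 beside a largest control-pair difference of 0.02. X with 3R was higher in H1-KD and Egg-KD, at 0.913 and 0.925 against 0.897 in their Control-KD. The log2 ratios were 0.027 and 0.045 beside a largest control-pair difference of 0.023. Set against the Piwi-series Control-KD they were 0.0035 and 0.021, within that difference. The level of 2L with 3L was lower in Egg-KD, at 1.04 against 1.07, a log2 ratio of -0.03 beside a largest control-pair difference of 0.02 and opposite in sign to that of HP1a-KD. Set against the Piwi-series Control-KD, the Egg-KD ratio of 2L with 3L was -0.009, within the largest control-pair difference. Pairs of arms of 1 chromosome give a scale. Interiors of 2L with 2R had mean values between 1.98 and 2.24 times those of the members, and interiors of 3L with 3R between 1.56 and 1.77 times. The pairs of 2L with 3R that the rule leaves out stood between 1.38 and 1.83 times the members, highest in HP1a-KD at 1.83 against 1.51 in its Control-KD.

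**Figure D2:**
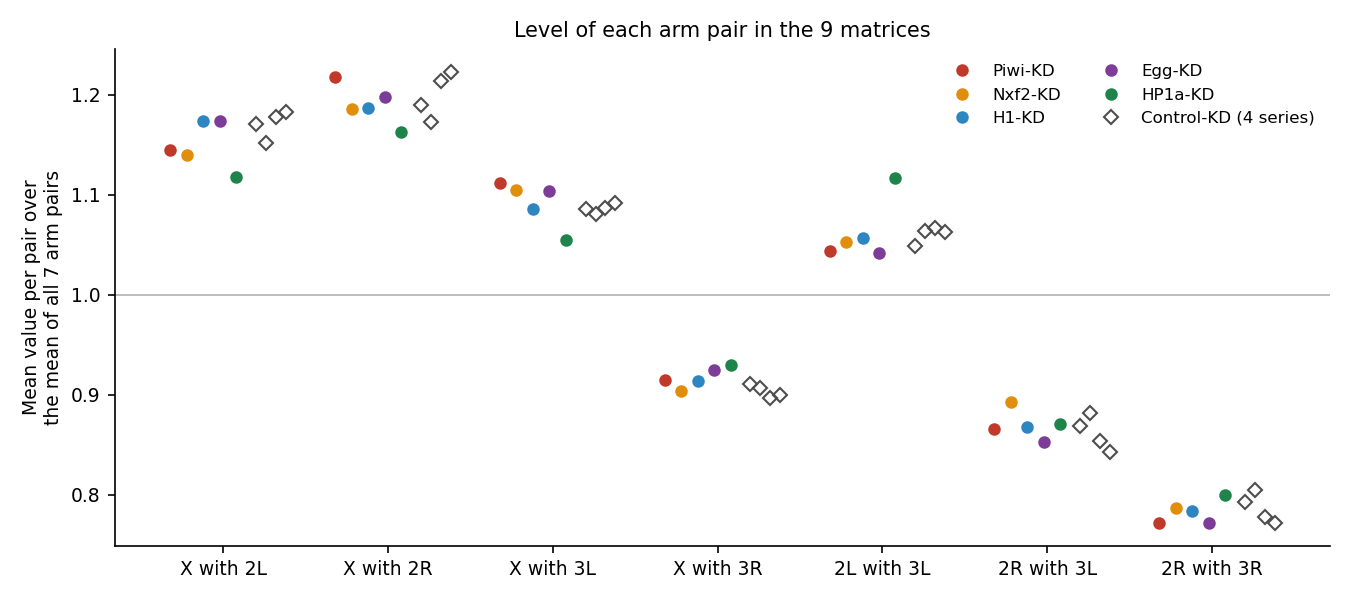
Level of each of the 7 arm pairs (mean value per bin pair over the mean of all members) in the 5 knockdowns (coloured circles) and the 4 Control-KD matrices (open diamonds, in the order of the Piwi, Nxf2, H1 and Egg, and HP1a series). X with 2R is highest and 2R with 3R lowest in all 9 matrices, and HP1a-KD stands apart at 2L with 3L, at 1.12.

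Bins of different chromosomes met more often when they lay at a like distance from the centromere end of their arms, and this preference was weaker in 4 of the 5 knockdowns by more than any 2 Control-KD matrices differed. Pairs were grouped by the difference between their 2 distances from the centromere end. Observed sums were divided by the sums expected from the mean level of the 2 bins within the arm pair. Pairs that differed by 0 to 2 Mb stood at 1.12 in HP1a-KD against 1.22 in its Control-KD, and pairs that differed by over 12 Mb stood at 0.818 against 0.671. Values were lower from each class to the next in every matrix, and in each the 3 nearest classes were above 1 and the farthest 2 below it.

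The ratio of the nearest class to the farthest sums up the preference. It was 1.52 in Piwi-KD against 1.68 in its Control-KD, 1.67 in Nxf2-KD against 1.75, 1.54 in H1-KD and 1.49 in Egg-KD against 1.79, and 1.37 in HP1a-KD against 1.82. The 5 knockdowns thus lay below all 4 Control-KD matrices, which spanned 1.68 to 1.82. The log2 ratios to the own Control-KD were -0.40 for HP1a-KD, -0.26 for Egg-KD, -0.22 for H1-KD and -0.14 for Piwi-KD, each larger than the largest control-pair difference of 0.12. With a margin of 4 Mb the value of Piwi-KD was -0.11, beside a largest control-pair difference of 0.08 at that margin. That of Nxf2-KD was -0.07, the size of the control-pair spread, and is not distinguished from it.

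Observed over expected values are relative to the arm pair, so a lower nearest class goes with higher values elsewhere, and the classes are not separate results. In the nearest class Piwi-KD had 1.16 against 1.19, H1-KD 1.17 and Egg-KD 1.15 against 1.22. In the farthest class Piwi-KD had 0.762 against 0.713, and H1-KD 0.756 and Egg-KD 0.773 against 0.680. As shares of the matrix total, pairs over 12 Mb apart held 0.684% in H1-KD and 0.664% in Egg-KD against 0.601% in their Control-KD, while pairs 0 to 2 Mb apart held 1.23% and 1.13% against 1.22%. The farthest-class log2 ratios of 0.19 in H1-KD and 0.14 in Egg-KD did not reach the control-pair spread of 0.21. In HP1a-KD all classes held less of the total than in its Control-KD, the nearest 0.858% against 1.29% and the farthest 0.555% against 0.627%. The log2 ratio of these shares was -0.59 in the nearest class of HP1a-KD and -0.18 in the farthest. Of these 2, only the first exceeded the control-pair spread, which was 0.17 in the nearest class and 0.21 in the farthest.

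The ratio was also taken in each of the 7 arm pairs, which share bins and matrices and are not separate evidence. The near to far ratio was above 1 in all 7 arm pairs of every knockdown, ranging from 1.25 for X with 3L in HP1a-KD to 2.27 for 2L with 3L in Nxf2-KD. It was below the own Control-KD in 6 of 7 arm pairs in Nxf2-KD and in 7 of 7 in each of the other 4 knockdowns. The drop exceeded the control-pair spread of the arm pair in 3 of 7 in Nxf2-KD and in 7 of 7 in each of the others. The steepest was 2L with 3L, at 1.69 in HP1a-KD against 2.69 in its Control-KD, and the shallowest in the controls was X with 3R, at 1.28 in HP1a-KD against 1.49. With the interior of each arm cut into 3 equal parts, pairs of 2 parts next to the centromere stood at 1.20 in HP1a-KD against 1.35, pairs of 2 parts next to the telomere at 1.16 against 1.31, and a centromere-side part with a telomere-side part at 0.832 against 0.698. Each of the 5 knockdown matrices held fewer member contacts than its Control-KD. Over the whole matrix Piwi-KD held more, 73205758 recovered contacts against 72450303, and the other 4 knockdowns held fewer. The part of depth in these ratios was not tested.

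**Figure D3:**
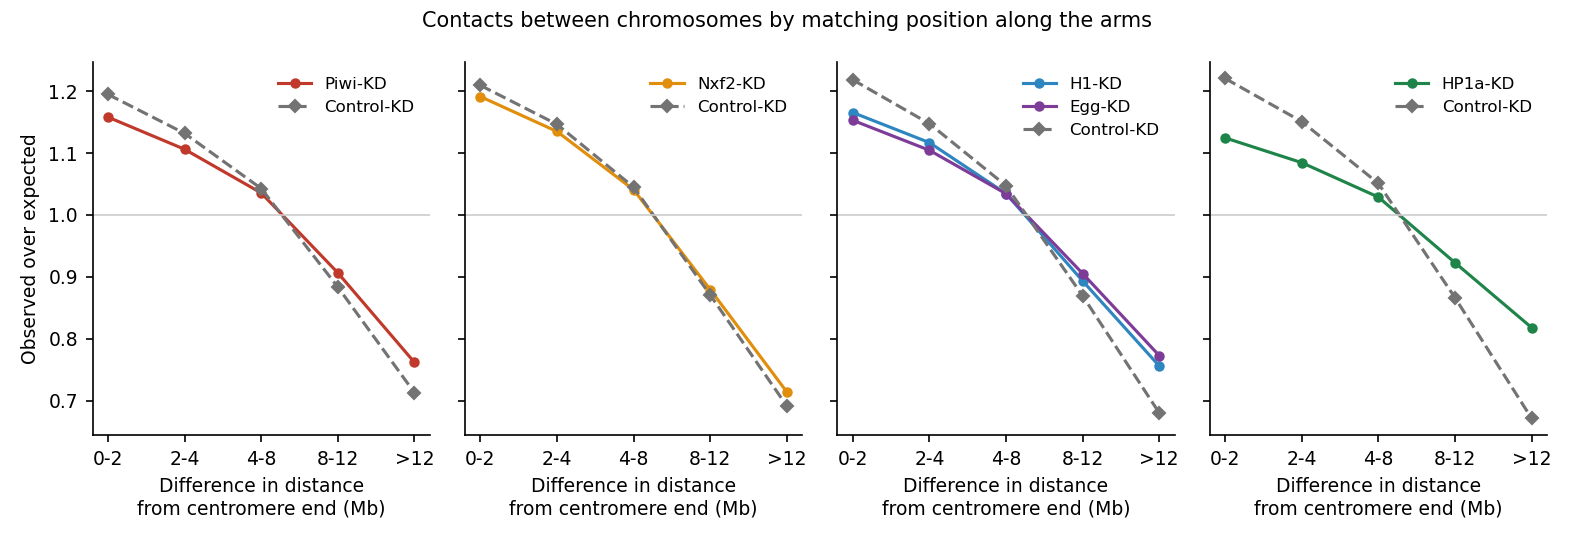
Observed over expected contact signal of member pairs (vertical axis) by the difference between the 2 bins' distances from the centromere end of their arms (Mb, 5 classes), each knockdown as a solid line with its Control-KD dashed. Every knockdown is flatter than its Control-KD, most in HP1a-KD, with 1.12 and 0.818 in the nearest and farthest classes against 1.22 and 0.671.

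The main axis of the contact map between chromosomes was position along the arm. The leading eigenvector of the observed over expected matrix had a Spearman correlation of 0.93 with the distance from the centromere end over 2453 bins in the Piwi-series Control-KD, and the Pearson correlation between the leading eigenvectors of the Piwi and Nxf2 series controls was 0.99 over 2452 bins. Bins share libraries and neighbours, so these are descriptions. Bins were put in 3 equal classes by the eigenvector, and contact within the top and bottom classes was divided by contact between them, with the eigenvector always taken from another series. The ratio was 1.57 in Piwi-KD against 1.76 in its Control-KD, 1.73 in Nxf2-KD against 1.83, 1.59 in H1-KD and 1.55 in Egg-KD against 1.88, and 1.42 in HP1a-KD against 1.90. The order of the matrices was that of the near to far ratio, and the log2 ratio of HP1a-KD was -0.42 beside a largest control-pair difference of 0.11. This measure and the near to far ratio read the same pairs and are not separate evidence.

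A second eigenvector, examined after the first had been seen to follow position, was nearly free of it, with a Spearman correlation of 0.05 with the distance from the centromere end in the Piwi-series Control-KD. Its Pearson correlation between the same 2 controls was 0.95. Observed over expected values within its top and bottom classes were 1.11 and 1.16 in HP1a-KD, against 1.10 and 1.16 in its Control-KD. The within to between ratio was 1.30 in HP1a-KD against 1.28, 1.27 in Piwi-KD against 1.32, 1.30 in Nxf2-KD against 1.31, and 1.24 in H1-KD and 1.29 in Egg-KD against 1.31. H1-KD and Piwi-KD had log2 ratios of -0.08 and -0.06, just past the largest control-pair difference of 0.05. HP1a-KD, which had the largest change along the first axis, was within the spread along the second.

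Single bins differed in how much they contacted other chromosomes, in a pattern that returned in all matrices. The level of a bin is its mean value with the interiors of other chromosomes over the mean of its arm. With pairs of 2L and 3R left out, a 2L bin is measured with X and 3L alone, and a 3R bin with X and 2R. Its SD over bins was between 0.156 and 0.213, while the counting error of a bin at the median was between 1.73% and 3.38%. Pearson correlations over 2450 bins were 0.96 to 0.98 between Control-KD matrices and 0.88 to 0.95 between a knockdown and its own Control-KD. Levels ran against contact nearby on the same arm: the Spearman correlation with the summed values at 40 to 400 kb was between -0.47 and -0.70, and the equal bin totals tie these measures. The correlation with the recovered contacts of the bin was between 0.03 and 0.22.

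The gradient of bin levels along the arm was strongest on 2L. Its centromere-side part averaged 0.797 in HP1a-KD, 0.824 in Egg-KD, 0.814 in H1-KD, 0.832 in Nxf2-KD and 0.850 in Piwi-KD, against 0.794, 0.794, 0.751 and 0.753 in the Control-KD matrices of the Piwi, Nxf2, H1 and Egg, and HP1a series. Its telomere-side part averaged 1.16 to 1.24 in knockdowns against 1.21 to 1.26 in Control-KD. On X the Control-KD matrices ran the other way, with a centromere-side part of 0.999 to 1.03 in knockdowns against 1.06 to 1.07 in Control-KD, and a telomere-side part of 0.955 to 1.02 against 0.910 to 0.930. In HP1a-KD the telomere side of X, at 1.02, was above its centromere side, at 0.999. On both arms the centromere-side part of every knockdown was closer to 1 than that of any Control-KD. For HP1a-KD on 2L the margin was narrow, 0.797 against 0.794. Its telomere-side part there, 1.24, was farther from 1 than those of the Piwi- and Nxf2-series Control-KD, 1.21 and 1.22. On 2R its centromere-side part, 0.934, was farther from 1 than those of all Control-KD matrices, 0.963 to 0.975. Over all 5 arms together, bins from 2.0 to 2.4 Mb from the centromere end, just inside, stood between 0.847 and 0.961 of their arm's interior mean over the 9 matrices, and those from 1.6 to 2.0 Mb, just outside, between 0.783 and 0.902. At the telomere side the values were 1.15 to 1.21 inside and 1.19 to 1.27 outside.

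Changes of bin level are described by arm. Since a level is relative to the mean of its arm, a higher value at one side is offset elsewhere on the arm, and opposite signs at the 2 sides are largely set by that scaling. In the centromere-side part of 2L the median change was a log2 ratio of 0.08 in HP1a-KD, 0.14 in Egg-KD, 0.13 in H1-KD, 0.07 in Nxf2-KD and 0.10 in Piwi-KD, beside a control-pair spread of 0.07. In the centromere-side part of 3L it was 0.04, 0.04, 0.05, 0.06 and 0.06 in the same order, beside a spread of 0.015. In the telomere-side part of X it was 0.16, 0.11, 0.13, 0.03 and 0.06, beside a spread of 0.02. On 2R HP1a-KD had -0.06 in its centromere-side part and 0.07 in its telomere-side part beside spreads of 0.01, whereas Piwi-KD, Nxf2-KD and Egg-KD each had 0.04 in the centromere-side part. H1-KD had -0.0067 and 0.0073 there, within the spread and with the signs of HP1a-KD.

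**Figure D4:**
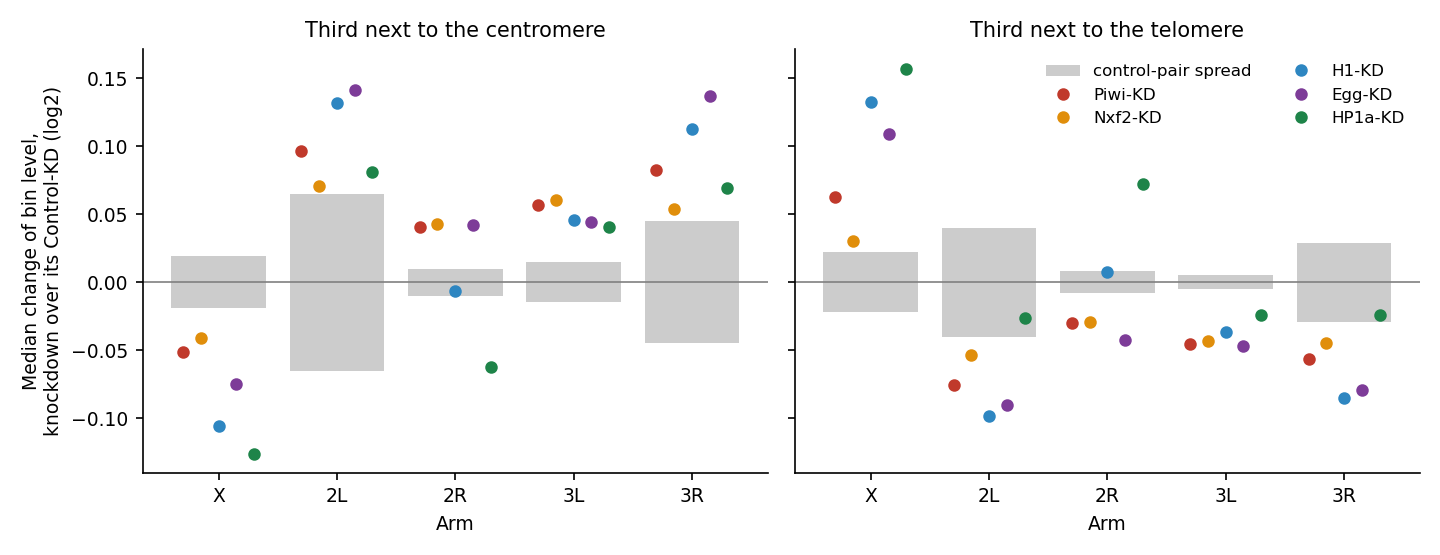
Median log2 change of bin level, knockdown over its Control-KD, in the part (1 of 3) of each arm's interior next to the centromere (left) and next to the telomere (right); grey boxes give the control-pair spread of the same median. On X the points lie below 0 at the centromere side and above 0 at the telomere side in all 5 knockdowns, and on 2L, 3L and 3R the signs are the other way round.

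A bin was counted as changed when its level differed by 3 control-pair spreads or more, a log2 ratio of 0.24 or a factor of 18.4%. In H1-KD 192 of 2459 interior bins (7.81%) were higher and 72 (2.93%) lower, and the same measure over all kept bins of the arms gave 8.57% and 2.71%. In HP1a-KD 122 bins (4.96%) were higher and 70 (2.85%) lower, where all bins gave 5.82% and 3.45%. In Egg-KD 103 (4.19%) were higher and 22 (0.895%) lower, where all bins gave 5.72% and 0.846%. The interiors hold 2473 of the 2977 bins of the arms, so shares near those of all bins are largely set in advance. Bins at the arm ends were not counted apart.

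Piwi-KD had 12 higher and 2 lower bins and Nxf2-KD 9 and 1, and all bins of the arms gave 0.475% and 0.0678% for Piwi-KD and 0.473% and 0.0338% for Nxf2-KD. Between 2 Control-KD matrices, 1 to 36 bins passed in a given direction, and the counts of both knockdowns lay in that range. The counts depended on the control chosen. Piwi-KD had 14 changed bins in all with its own Control-KD and 63, 131 and 157 with those of the Nxf2, H1 and Egg, and HP1a series, and Nxf2-KD had 10 with its own and 9, 69 and 85 with those of the Piwi, H1 and Egg, and HP1a series. H1-KD had 264 changed bins in all with its own Control-KD and 86, 82 and 263 with those of the Piwi, Nxf2 and HP1a series, and Egg-KD had 125 with its own and 38, 44 and 154. HP1a-KD had 192 with its own and 98, 140 and 197 with those of the Piwi, Nxf2, and H1 and Egg series. With all 4 Control-KD matrices in turn, 29 bins were higher and 6 lower in H1-KD, 26 and 11 in HP1a-KD, 9 and 0 in Egg-KD, 6 and 0 in Piwi-KD, and 1 and 0 in Nxf2-KD.

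The bin chrX:4040001-4080000 (dm3) had the largest increase in both HP1a-KD and Egg-KD. Its level was 1.21 in HP1a-KD against 0.790 in its Control-KD, and 1.15 in Egg-KD against 0.792. The log2 ratio was 0.62 in HP1a-KD, 0.53 in Egg-KD, 0.50 in H1-KD, 0.17 in Nxf2-KD and 0.14 in Piwi-KD, while 2 Control-KD matrices never differed by more than 0.10. It is a thinly covered bin, with 3.07% of kept bins holding fewer contacts in HP1a-KD. Coverage was lower still at the second bin of HP1a-KD, chr2L:20280001-20320000, with a log2 ratio of 0.56 and 0.0676% of bins below it. Control-KD matrices differed by up to 0.32 (log2) at that second bin.

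The other bins with the largest increases were mostly on 3R and 2L. In Piwi-KD chr3R:7760001-7800000 had a level of 1.32 against 0.931, in a bin with 0.542% of bins below it in contacts, and chr2L:13240001-13280000 had 0.916 against 0.689. In H1-KD chr2L:14120001-14160000 had 0.893 against 0.584, but the Control-KD matrices differed by up to 0.41 (log2) at that bin. The second increase of H1-KD was chr3R:2000001-2040000 (0.83 against 0.582), that of Egg-KD chr2R:2200001-2240000 (0.953 against 0.665), and those of Nxf2-KD were chr3R:5480001-5520000 (1.19 against 0.932) and chr3R:4160001-4200000 (0.907 against 0.727). Control-KD matrices differed by up to 0.29 and 0.21 (log2) at the first 2 of these bins. Thin coverage also held for the 2R bin of Egg-KD, with 0.643% of kept bins below it in contacts. At chr2L:13240001-13280000 in Piwi-KD it was 1.83%.

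Of the 10 bins named for decreases, the 2 largest per knockdown, 8 lie on 3R, which holds 597 of the 2473 interior bins. HP1a-KD had 0.973 against 1.29 at chrX:18880001-18920000, where Control-KD matrices differed by at most 0.10 (log2), and 0.830 against 1.08 at chr3R:19280001-19320000. H1-KD had 0.961 against 1.32 at chr3R:19120001-19160000 and 1.03 against 1.37 at chr3R:16960001-17000000. Next to the last of these, Egg-KD had 1.10 against 1.41 at chr3R:16920001-16960000. Its other decrease, 0.779 against 1.01 at chr3R:22840001-22880000, lay beside that of Piwi-KD, 0.815 against 1.01 at chr3R:22800001-22840000. Piwi-KD also had 0.797 against 0.959 at chr3R:15520001-15560000, a bin with 1.08% of bins below it in contacts. In Nxf2-KD the 2 decreases, at chr2R:14960001-15000000 (1.15 against 1.39) and chr3R:23880001-23920000 (0.673 against 0.794), had log2 ratios of -0.28 and -0.24, the second just short of the limit, and the Control-KD matrices differed by up to 0.31 and 0.22 there.

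The highest and lowest bins, picked in the Piwi-series Control-KD, stayed high or low in the other matrices, though not all at the same rank. The bin chr2R:2280001-2320000 had the highest level in each of the 9 matrices, 3.79 in HP1a-KD, 3.3 in Egg-KD, 2.96 in H1-KD, 2.60 in Nxf2-KD and 3.31 in Piwi-KD, against 3.08, 2.70, 3.06 and 2.69 in the Control-KD matrices of the Piwi, Nxf2, H1 and Egg, and HP1a series. The next were chr3L:20440001-20480000, at 2.20 in the Piwi-series Control-KD and 1.81 to 2.88 in the other 8, and chrX:11080001-11120000, at 1.97 and 1.76 to 2.63. In that first Control-KD their neighbours stood at 0.965 and 1.06 beside the 3L bin and at 0.795 and 0.883 beside the X bin. In all, 8 bins exceeded 1.5 in all 9 matrices, of which 6 lie on 3L.

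Low levels gathered on 2L toward the centromere. The 3 lowest bins in the Piwi-series Control-KD were chr2L:20120001-20160000 at 0.488, chr2L:20160001-20200000 at 0.601 and chr2L:17920001-17960000 at 0.635. In the other 8 matrices they ranged over 0.456 to 0.554, 0.513 to 0.633 and 0.503 to 0.680, and ranked as far from the lowest as 2, 10 and 29. The first 2 are thinly covered, with 3.87% and 1.97% of kept bins holding fewer contacts in the Piwi-series Control-KD. Of the 26 bins below 0.75 in all 9 matrices, 25 lie on 2L, between chr2L:15600001 and 20480000. Levels on 2L leave out contact with 3R, to which the equal bin totals tie them. Whether that contact is higher at these bins was not tested. Of the 8 high bins, those on 2R and X stand alone, whereas 4 of the 6 on 3L lie together between chr3L:3200001 and 3440000.

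A few small windows carried far more contact between chromosomes than the levels of their bins predict. In windows of 5 by 5 bins the median observed over expected value of the Piwi-series Control-KD was 0.980 over 64389 windows, with a 99th percentile of 1.83, and 11 windows exceeded 5. All 11 were above 2 in each of the other 8 matrices and 7 were above 5 in each. The strongest joined chr2R:2200001-2400000 with chr3R:3200001-3400000, at 20.6 in HP1a-KD, 19.0 in Egg-KD, 15.9 in H1-KD, 18.3 in Nxf2-KD and 19.5 in Piwi-KD, against 19.6, 20.1, 21.4 and 21.3 in the Control-KD matrices of the Piwi, Nxf2, H1 and Egg, and HP1a series. It was the strongest of the 5 windows described here in each matrix, and H1-KD had the lowest value.

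The next 2 windows shared 1 place on X. The window chrX:11000001-11200000 met chr3L:18400001-18600000 at 14.7 in the Piwi-series Control-KD and 13.7 to 18.1 in the other 8 matrices, and it met chr2L:11600001-11800000 at 12.9 and 11.5 to 15.9. The fourth joined chrX:2800001-3000000 with chr2R:2000001-2200000, at 9.87 and 5.76 to 10.3, and the fifth chrX:19600001-19800000 with chr3R:3600001-3800000, at 8.57 and 6.97 to 12.9. The fourth was lower in H1-KD and Egg-KD, at 5.76 and 5.87 against 10.3 in their Control-KD, with log2 ratios of -0.84 and -0.82 beside a largest control-pair difference of 0.40. Its peak bin pair held 13 recovered contacts in H1-KD and 27 in Egg-KD against 33 in their Control-KD, and no more than 81 in any matrix. The first window was lower in H1-KD than in its Control-KD by a log2 ratio of -0.43, beside a largest control-pair difference of 0.13. Smaller excesses over the largest control-pair difference were those of Nxf2-KD (-0.13 beside 0.13) and Egg-KD (-0.18) at the first window and of H1-KD at the second (-0.39 beside 0.30) and the third (-0.25 beside 0.24). All 4 were within it when set against the Piwi-series Control-KD.

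Within each of these windows the signal was narrow on one arm and broad on the other. At the strongest, the peak bin pair, chr2R:2280001-2320000 with chr3R:3280001-3320000, stood between 303 and 569 times the mean of the arm pair, from 88 to 352 recovered contacts in a matrix. It was lower than in the own Control-KD in H1-KD (330 against 410 times) and Nxf2-KD (303 against 330 times), and higher in the other 3 knockdowns. The Control-KD matrices alone ran from 330 to 410 times, and those other 3 knockdowns lay above that range, between 482 and 569 times. The peak held 88 recovered contacts in H1-KD against 117, and 224 in Nxf2-KD against 263. This is a single bin pair for which no control-pair spread was taken, so these differences are not interpreted. Moving along 3R, values stayed above 5 in 20 of 20 bins within 400 kb in both groups and averaged 53.3 in knockdowns against 49.8 in Control-KD at 80 to 200 kb. Moving along 2R, 0 of 19 bins within 400 kb were above 5 and the mean at the same distances was 1.07 against 1.62. The contact was thus seen in 1 kept bin of 2R and over a wide stretch of 3R, and the 2R bin at -40 kb from the peak was not kept, so that side was not observed there.

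The same form was found at the other 4. The bin chrX:11080001-11120000 was alone on X, with 0 of 20 bins within 400 kb above 5, while along 3L around chr3L:18440001-18480000 20 of 20 bins were above 5 in knockdowns and 19 of 20 in Control-KD, and along 2L around chr2L:11720001-11760000 19 and 18 of 20. At the fourth window the single bin was chr2R:2160001-2200000 and X was broad, with 16 of 18 bins in knockdowns and 18 of 18 in Control-KD. At the fifth it was chrX:19680001-19720000, and 3R was broad over 16 of 20 bins in knockdowns and 11 of 20 in Control-KD. Of the single bins, that of 2R at the strongest window had few contacts, with 0.882% of kept bins below it in the Piwi-series Control-KD, and that on X shared by 2 windows had 17.8% below it. Those of the fourth window and the fifth were also thinly covered, with 6.31% and 2.48% below them. A thinly covered bin is scaled up by the correction. Over the 9 matrices the peak bin pair held 141 to 658 recovered contacts at the second window, 71 to 309 at the third and 43 to 120 at the fifth.

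The levels of 2 of the highest bins were lower once these windows were taken out. Without partners within 1 Mb of a window above 5, chrX:11080001-11120000 had levels of 1.14 to 1.37 in knockdowns against 1.02 to 1.19 in Control-KD. The bin chr2R:2280001-2320000 stayed high, at 1.88 to 2.50 against 1.76 to 2.23. The bin chr3L:20440001-20480000 lay in none of the 11 windows. Whether the single bins hold sequence that is present elsewhere in the genome of these cells was not tested.

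**Figure D5:**
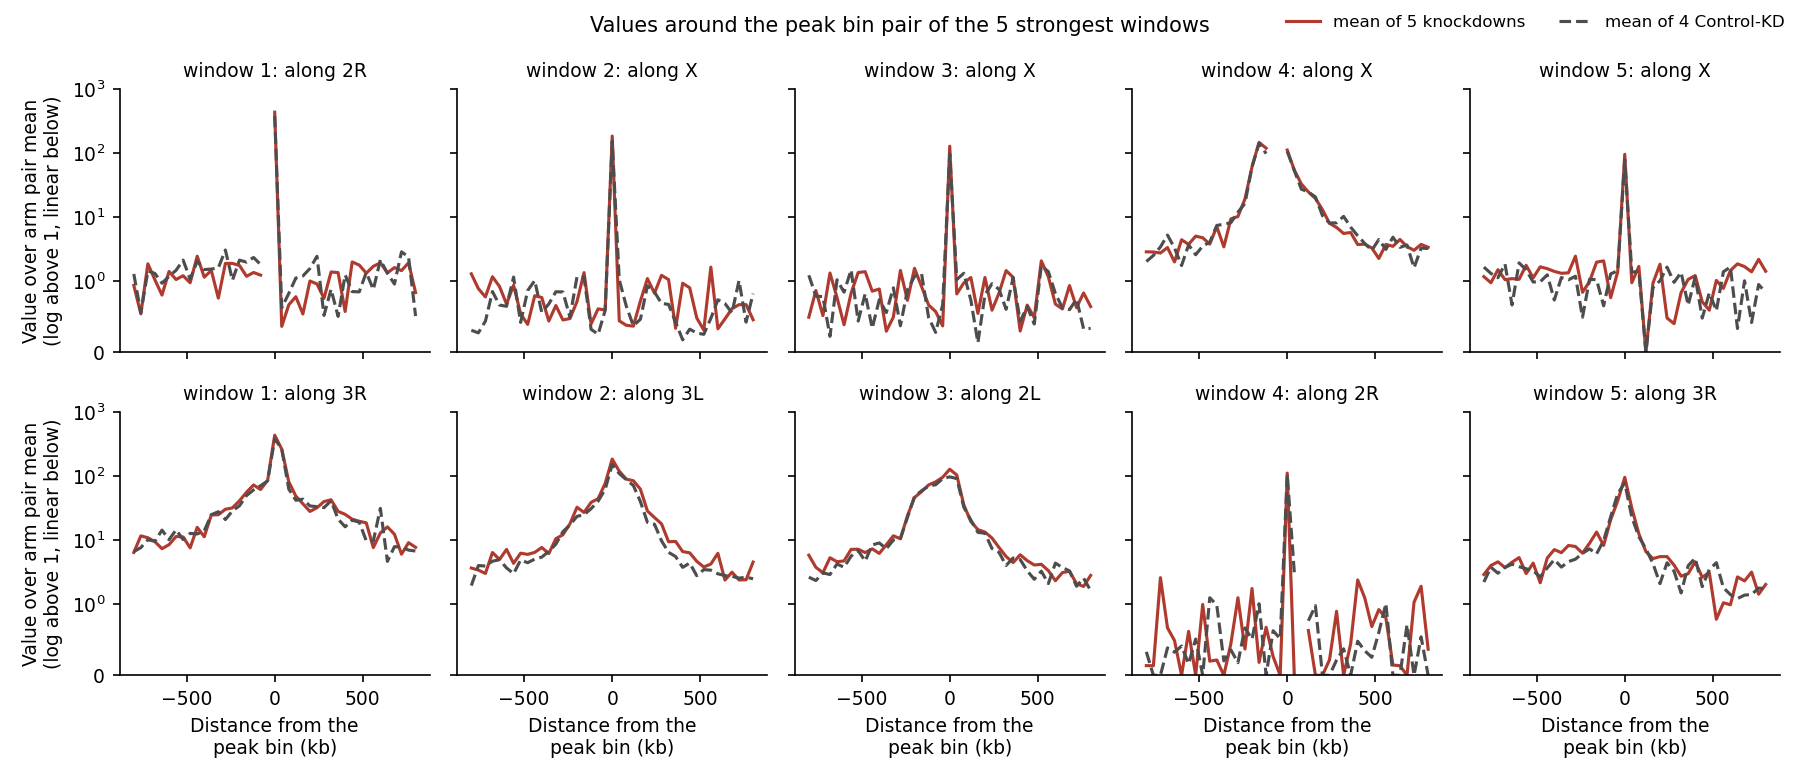
Value over the mean of the arm pair (log axis above 1, linear below) against distance from the peak bin (kb) at the 5 strongest windows, moving along the first arm with the second held at its peak (top) and along the second with the first held (bottom); lines are means of the 5 knockdowns (solid) and the 4 Control-KD matrices (dashed), with gaps where a bin was not kept. One arm shows a single high bin and the other high values over many bins, which at the fourth window are higher 160 kb from the stated peak than at it.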

How the data were processed

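Hi-C of OSCs was analysed in 9 contact matrices. What the authors deposited is a signal: an ICE-balanced contact value for each pair of 40-kb bins of dm3, not a count. The authors computed matrices with HiCExplorer after HindIII digestion, summed 2 replicates per matrix, dropped bins with too few or too many reads, balanced the rest by ICE and scaled matrices within each comparison. The labels list cutadapt, Bowtie2 2.2.9 and MACS 1.4.2 for the series as a whole. Totals differ between matrices, so shares and ratios within a matrix were compared. Contacts were recovered by undoing the balancing with 1 factor per bin; 100% of the results under 50 were whole to within 0.01. Matrices hold 25463370 to 73205758 contacts.

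With merged replicates, differences were set beside those of the 6 pairs of Control-KD matrices (root mean square and largest), and no test was run. The expected value of a pair is the product of its bins' means over the arm pair mean. Eigenvectors came from observed over expected values, capped at 5. Windows needed 20 kept pairs. Bins named are the 3 highest and 3 lowest of the Piwi-series Control-KD and, per knockdown, the 2 with the largest change in each direction at least 400 kb apart, and the 5 strongest windows of that Control-KD are given. Bins and windows counted past a fixed value were chosen after their values were seen. Members, measures and rules were chosen with earlier results of these data known. Scripts were tested on simulated matrices. Genes and sequences were not used here, nor were DamID-seq and ChIP-seq samples. Python 3.11.15, NumPy 2.4.6, SciPy 1.17.1 and pandas 2.3.3 were used. Alternatives were other margins, totals, limits and Control-KD matrices, recovered contacts, and absent pairs left out.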

Additional observations from a re-analysis of the deposited data

How the results depend on the processing

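Of 212 alternative values, 132 moved by less than the spread among Control-KD matrices or, for counts, stayed within 1.5 times, 79 moved further and 1 reversed. A reversal is counted only where the main value exceeded every control pair. Of 135 log2 changes under an alternative, 21 had the other sign, and in 20 of them the main value was within the control pairs, as for the share in H1-KD and Nxf2-KD. Unless the setting itself changes the number of pairs or bins, the cause was not tested. The mean Control-KD share of 6.01% became 7.33% with a margin of 1 Mb, 3.71% with 4 Mb, 7.50% with 2L and 3R pairs, 7.08% of the total without the diagonal and 8.79% of the total within arms without the diagonal. With other Control-KD matrices the log2 change of the share was 0.28 and 0.20 in Nxf2-KD (H1 and Egg series, HP1a series), and with the Nxf2-series matrix -0.69 in HP1a-KD, -0.33 in Egg-KD and -0.24 in H1-KD. The mean X to autosome ratio of 1.19 became 1.03 in recovered contacts and 1.02 with 2L and 3R pairs. With those pairs its log2 change was -0.024 in Piwi-KD, -0.053 in H1-KD and -0.19 in HP1a-KD, the last 2 beyond the largest control-pair difference there of 0.036, and without absent pairs it was -0.046 in HP1a-KD. With other Control-KD matrices it was -0.028 and -0.047 in Nxf2-KD, and with the Nxf2-series matrix -0.033 in HP1a-KD, 0.074 in Egg-KD and 0.038 in H1-KD.

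The highest arm pair level over the lowest, 1.53, became 1.46 in recovered contacts, 1.35 without absent pairs and 1.45 with 4 Mb. The SD of bin levels, 0.195, became 0.387 in recovered contacts. Bins past a limit of 2 and 4 spreads numbered 129 and 3 in Piwi-KD, 81 and 1 in Nxf2-KD, 703 and 89 in H1-KD, 431 and 30 in Egg-KD, and 630 and 57 in HP1a-KD. Egg-KD had 76 in recovered contacts. With other Control-KD matrices there were 63, 131 and 157 in Piwi-KD, 69 and 85 in Nxf2-KD, 86 and 82 in H1-KD, 38 and 44 in Egg-KD, and 98 in HP1a-KD.

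The mean near to far ratio of 1.76 became 1.46 with 4 Mb and 1.64 with bin levels not taken off. With 4 Mb its log2 change was -0.29 in HP1a-KD, -0.18 in Egg-KD, -0.14 in H1-KD and -0.11 in Piwi-KD, all beyond the largest control-pair difference at that margin, 0.08. The mean eigenvector class ratio of 1.84 became 2.28 with 5 classes, 1.47 with 4 Mb and 1.31 with the second eigenvector, an alternative chosen after seeing the data. Its log2 change in HP1a-KD, Egg-KD and H1-KD was -0.59, -0.38 and -0.34 with 5 classes and -0.24, -0.17 and -0.14 with 4 Mb. With the second eigenvector it was -0.028 in Egg-KD, -0.080 in H1-KD, -0.062 in Piwi-KD and 0.021 in HP1a-KD, the last being the reversal.

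No paired analysis was possible because the replicates were merged before deposit and no result comes from a test, and for the same reason no replicate was left out. Depth limits single bin pairs, which held 0.723 to 2.80 contacts on average.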
